A study of Mus musculus with 29 samples.

Results

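Genes that mark the subfields of the mouse hippocampus were examined in the hippocampal RNA of 29 mice. Prox1, C1ql2 and Dsp stood for the dentate gyrus, and Wfs1, Fibcd1, Mpped1 and Bok for the CA fields. The genes were taken by symbol from the 31002 genes of the expression table, and all 7 were among the 15554 genes with a TPM (a level relative to all transcripts of the library and corrected for transcript length) of at least 1 in at least 2 mice. Each mouse gave 1 library. Young mice, 2 months old, were 7 wildtype (WT) and 8 hAβ-KI animals, and old mice, aged 22 months, were 8 WT and 6 hAβ-KI animals. hAβ-KI mice are homozygous for an App allele whose 3 amino acid differences within Aβ were changed to the human sequence, with no disease mutation and with loxP sites around the exon that encodes Aβ. The allele is expressed from the App locus itself, so that no transgene promoter or Cre was involved in these groups. The labels give the strain as C57BL/6N for WT and C57BL/6NJ for hAβ-KI mice, where the study's methods describe other substrain sources and a mixed breeding history for hAβ-KI mice, so that the allele and the background cannot be told apart. There were 18 males and 11 females, with both sexes in each group.

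The hippocampus is a loop of principal neurons. Granule cells of the dentate gyrus send mossy fibres to the pyramidal cells of CA3, which in turn project to CA1, with the small field CA2 between them. Each field has its own set of strongly expressed genes, and a piece of tissue that holds more of one field carries more of that field's RNA. In a bulk sample, fewer cells of a type and less RNA per cell cannot be told apart.

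The starts of 5 of these genes are shown here because they open the dentate genes and 2 of the CA genes whose levels are compared next. Each run covers 250 bases before to 50 bases after the RefSeq start on GRCm38.p6, 5′ to 3′ on the strand of the gene. Capitals mark the E-box, written CANNTG, the motif bound by basic helix-loop-helix factors, a family that guides neuronal differentiation. The motif reads the same in its general form on both strands. Prox1 (chr1:190170778-190171077, minus strand) and C1ql2 (chr1:120340332-120340631, plus strand) lie on the same chromosome, Dsp is at chr13:38151044-38151343 (plus), Wfs1 at chr5:36988933-36989232 (minus) and Fibcd1 at chr2:31845956-31846255 (minus).
Prox1: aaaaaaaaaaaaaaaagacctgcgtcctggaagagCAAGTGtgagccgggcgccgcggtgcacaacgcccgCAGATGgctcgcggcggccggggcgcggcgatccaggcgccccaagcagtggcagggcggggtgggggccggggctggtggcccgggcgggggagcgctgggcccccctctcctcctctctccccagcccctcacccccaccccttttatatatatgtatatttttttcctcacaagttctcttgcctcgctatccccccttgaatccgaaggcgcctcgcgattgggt
C1ql2: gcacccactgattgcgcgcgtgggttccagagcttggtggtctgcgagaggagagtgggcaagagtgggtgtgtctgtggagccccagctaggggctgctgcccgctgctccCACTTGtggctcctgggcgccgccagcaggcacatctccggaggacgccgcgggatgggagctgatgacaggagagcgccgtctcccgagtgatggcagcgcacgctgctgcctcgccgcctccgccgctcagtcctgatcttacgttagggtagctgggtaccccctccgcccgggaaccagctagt
Dsp: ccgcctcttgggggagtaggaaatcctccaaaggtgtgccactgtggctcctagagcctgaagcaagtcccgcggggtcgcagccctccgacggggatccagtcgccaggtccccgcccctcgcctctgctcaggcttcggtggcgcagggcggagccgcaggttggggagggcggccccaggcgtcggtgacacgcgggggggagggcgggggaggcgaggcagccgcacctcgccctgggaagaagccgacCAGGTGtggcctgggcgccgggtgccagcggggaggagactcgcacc
Wfs1: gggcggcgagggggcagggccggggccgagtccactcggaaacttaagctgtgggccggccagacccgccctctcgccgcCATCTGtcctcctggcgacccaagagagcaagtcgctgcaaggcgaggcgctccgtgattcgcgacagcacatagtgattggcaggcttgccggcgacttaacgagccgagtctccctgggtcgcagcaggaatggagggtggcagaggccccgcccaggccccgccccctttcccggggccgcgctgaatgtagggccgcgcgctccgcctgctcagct
Fibcd1: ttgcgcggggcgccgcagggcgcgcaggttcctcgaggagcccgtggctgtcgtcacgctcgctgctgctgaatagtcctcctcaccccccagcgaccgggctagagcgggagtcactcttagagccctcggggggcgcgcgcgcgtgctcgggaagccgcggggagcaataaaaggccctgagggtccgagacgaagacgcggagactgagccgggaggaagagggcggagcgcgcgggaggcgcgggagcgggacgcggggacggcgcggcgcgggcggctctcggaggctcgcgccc

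The Prox1 start held 2 E-boxes, C1ql2, Dsp and Wfs1 held 1 each, and Fibcd1 held 0. Among all 32851 promoters of the same length, 72.3% held at least 1, with a median of 1. The narrower form CAGATG or its reverse complement CATCTG, which overlaps the general motif, was found in Prox1 and Wfs1, against 17.2% of all promoters, so that neither form set the dentate genes apart from the CA genes. Of the starts not shown, that of Bok and a further listed start of Prox1 held 0 E-boxes, and the 2 listed starts of Mpped1 held 0 and 1. None of these held the narrower form.

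On GRCm38 with the GENCODE M21 annotation, Prox1 spans chromosome 1 from 190118035 to 190170714 on the minus strand, and the antisense transcript Prox1os begins inside it. The libraries were made with a kit that does not mark strand. Where their exons overlap, reads of the 2 genes cannot be told apart, and 1.08% of the 43-base stretches of Prox1 transcripts, the length of a read, were shared with Prox1os. For Dsp, on chromosome 13 from 38151294 to 38198577, 4.73% were shared with Gm10129, a gene model on the opposite strand. The share was 0.13% for Wfs1 (chromosome 5, 36966104 to 36989205) and 0 for C1ql2 (chromosome 1, 120340582 to 120343174), Fibcd1 (chromosome 2, 31813290 to 31846005), Mpped1 (chromosome 15, 83779467 to 83858494) and Bok (chromosome 1, 93685660 to 93695764).

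One library stood apart before any group comparison. In the old male hAβ-KI mouse named 66-0, 642 genes lay over 3 SD (of the deviations from the group means over all mice) from its group's mean, against 1 to 46 genes in each of the other 28 mice. It was the lowest of all 29 mice for 9.65% of the genes tested and the highest for 11.2%. The young WT mouse 119-0 was the highest for more genes, 16.3%, and the lowest for 0.463%. Among the 7 marker genes 66-0 was the lowest for 5 and the highest for 1. Results for old hAβ-KI mice are therefore given with and without it. Index numbers of the libraries follow the groups block by block, and their order and the groups cannot be told apart. Gene totals were 717535 to 816940 TPM per mouse.

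All 7 genes were detected in every mouse. The CA genes were the more abundant, with a mean TPM over the 29 mice of 109 for Mpped1, 108 for Bok, 86.6 for Wfs1 and 49.7 for Fibcd1. Of the dentate genes, C1ql2 reached 77.6 TPM, Prox1 6.68 and Dsp 1.03. Genes of neighbouring regions were also present, and over the 28 mice without 66-0 they summed to 53.4 to 82.6 TPM for 7 neocortical, 74.8 to 150.0 for 8 striatal and 49.8 to 85.5 for 9 thalamic and habenular genes. Of these 9, the 8 genes that passed the filter on low values were tested. The 8 choroid plexus genes, which mark the ventricular tissue next to the hippocampus, ranged from 37.4 to 17957 TPM in the same mice. Their sum was under 100 TPM in 6 of 29 mice, 1 or 2 in each group and 66-0 among them. The summed level of the 3 dentate genes ranged from 70.4 to 107 TPM and that of the 4 CA genes from 314.6 to 401 in those 28 mice.

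Prox1 encodes the homeobox factor that specifies and maintains granule cell identity. Its lowest, median and highest TPM were 5.48, 7.55 and 7.98 in young WT mice, 5.92, 6.83 and 9.15 in young hAβ-KI mice and 5.52, 6.71 and 8.30 in old WT mice. In old hAβ-KI mice they were 3.21, 6.13 and 7.61, the lowest being 66-0 and the next 4.99. The 4 groups overlapped, and the means of 7.04 ± 1.01 (SD, n = 7), 6.89 ± 1.04 (n = 8), 6.80 ± 0.979 (n = 8) and 5.82 ± 1.54 (n = 6) were ordered within their spread. The antisense Prox1os, at 12.6 to 22.9 TPM in the other 28 mice, was 6.37 in 66-0.

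C1ql2 encodes a secreted C1q-like protein with which granule cells organize the mossy fibre synapse on CA3. It ranged from 63.4 to 89.6 TPM (median 77.3) in young WT, from 68.6 to 94.8 (median 74.7) in young hAβ-KI and from 67.0 to 97.6 (median 80.2) in old WT mice. In old hAβ-KI mice it ranged from 77.7 to 98.8 in 5 animals and was 39.0 in 66-0. The 5 held the highest value of all mice, 98.8 TPM in 41-2-4, and 66-0 the lowest. Group means were 75.5 ± 9.92, 76.5 ± 8.66, 80.9 ± 11.7 and 77.2 ± 20.4 TPM (SD) for young WT, young hAβ-KI, then the 2 old groups.

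Dsp encodes desmoplakin, the plaque protein that ties desmosomes to intermediate filaments, and is a granule cell marker in this tissue. Its median was 1.08 TPM in young WT (0.98 to 1.48), 1.09 in young hAβ-KI (0.76 to 1.17), 1.04 in old WT (0.79 to 1.27) and 0.995 in old hAβ-KI mice (0.26 to 1.2). Its value in 66-0 was 0.26, and the next lowest of that group was 0.90. At about 1 TPM the log2(TPM + 1) scale understates its changes.

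Wfs1 encodes wolframin, a membrane protein of the endoplasmic reticulum, and marks CA1 pyramidal cells. It ranged from 73.3 to 105.5 TPM (median 97.8) in young WT, 68.2 to 107 (median 83.8) in young hAβ-KI and 73.5 to 99.1 (median 84.8) in old WT mice. Of the old hAβ-KI mice 5 had 61.3 to 86.4 TPM, and 66-0 had 110.3, the highest of all 29. The mean of young WT mice, 95.1 ± 11.7 TPM, was the highest of the group means, followed by old WT with 85.4 ± 10.0, young hAβ-KI with 85.0 ± 12.6 and old hAβ-KI mice with 80.5 ± 16.9, each within the spread of the next.

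Fibcd1 encodes a membrane receptor with a fibrinogen-like domain and also marks CA1. It lay between 43.8 and 59.7 TPM (median 49.5) in young WT, 46.5 and 60.3 (median 51.0) in young hAβ-KI and 45.4 and 60.3 (median 49.7) in old WT mice. In old hAβ-KI mice it was 42.2 to 49.6 in 5 animals and 25.4 in 66-0. These values overlapped those of each other group, but none of the 6 reached 50 TPM.

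Mpped1 encodes a metallophosphoesterase-domain protein enriched in CA pyramidal cells. Its range was 92.2 to 120.1 TPM (median 113) in young WT, 97.9 to 138 (median 111) in young hAβ-KI, 91.4 to 125 (median 109) in old WT and 88.1 to 108 (median 102) in old hAβ-KI mice. Mouse 66-0, at 104.5 TPM, lay inside the range of every group, so that Mpped1 was the 1 gene of the 7 for which it was neither lowest nor highest.

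Bok encodes a BCL2-family protein and is strong in CA3. It ranged from 93.4 to 124 TPM (median 101) in young WT and from 112 to 132 (median 120.1) in young hAβ-KI mice, and 6 of 7 young WT mice were below the lowest young hAβ-KI mouse. Old WT mice had 91.9 to 109.6 TPM (median 103). Old hAβ-KI mice had 97.4 to 127 in 5 animals and 50.3 in 66-0. The mean of young hAβ-KI mice, 121 ± 8.01 TPM, was above those of young WT (103 ± 10.4), old WT (102 ± 5.70) and old hAβ-KI mice (102 ± 28.6).

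**Figure D1:**
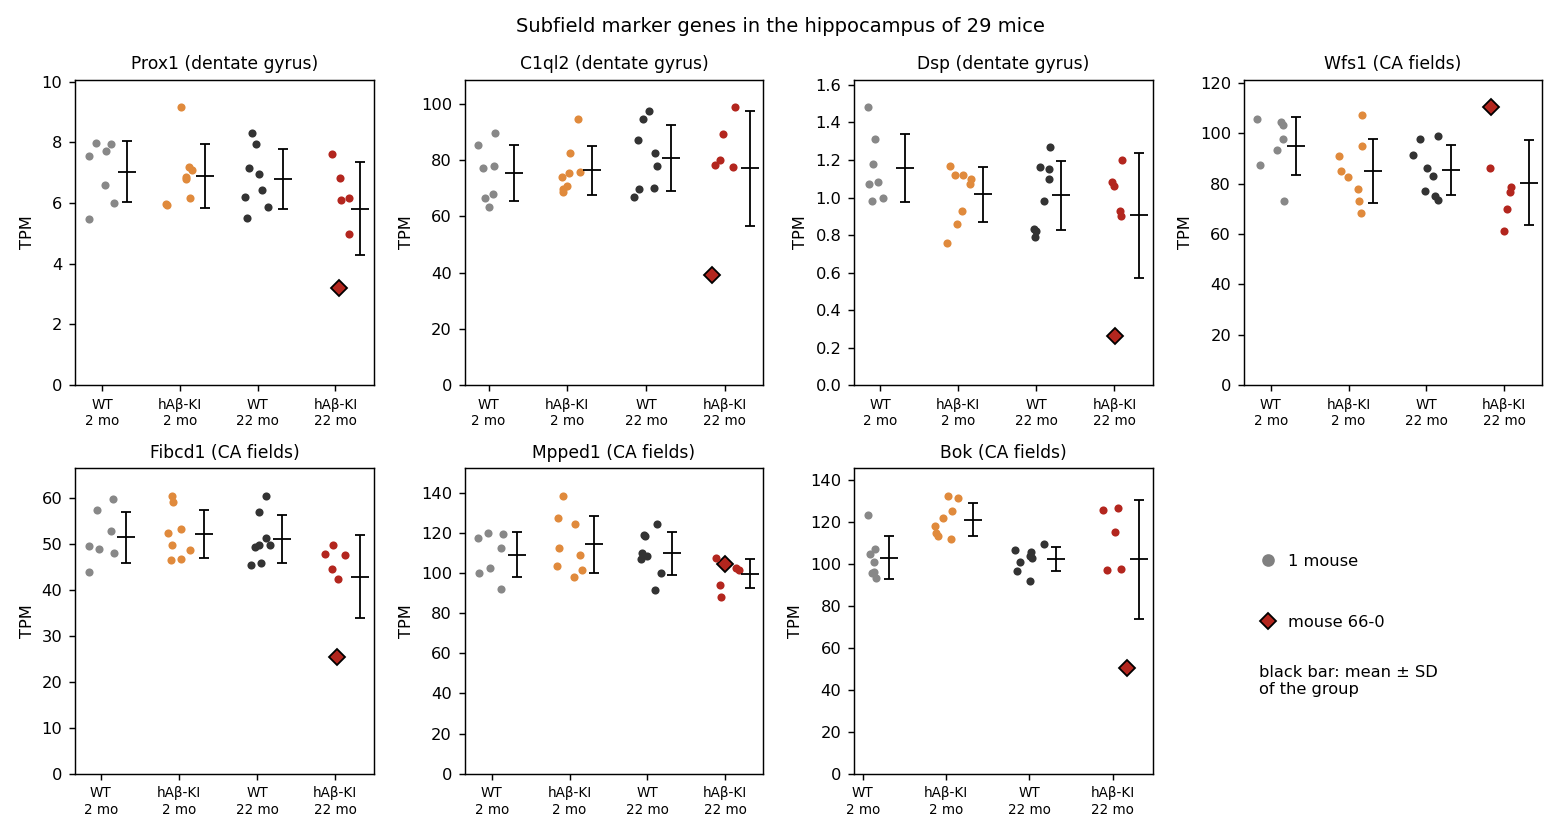
TPM of the 7 genes in each mouse (points) by genotype and age, with the mean ± SD of each group as a black bar and mouse 66-0 as a diamond. Mouse 66-0 is the lowest of all mice for Prox1, C1ql2, Dsp, Fibcd1 and Bok, the highest for Wfs1, and within the range for Mpped1, while the other 28 mice overlap between groups.

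Between genotypes, no subfield marker differed past the threshold (limma on log2(TPM + 1), Benjamini-Hochberg adjusted p under 0.1 with p under 0.05). At 2 months 0 of 7 were called against 0.0386% of all genes tested, and 0 had an unadjusted p under 0.05, against 6.69%. Bok had the largest difference, 0.23 ± 0.12 (log2, hAβ-KI minus WT, SE) with a 95% interval from -0.00 to 0.47 and an adjusted p of 0.755. Without 66-0 its SE was 0.06 and the adjusted p by limma 0.252, with 0 of 7 genes called and 1 at an unadjusted p under 0.05. Wfs1 was -0.16 ± 0.10 (adjusted p = 0.868 by limma), and the other 5 genes lay between -0.10 and 0.06. The 95% intervals of these 5 reached at most -0.29 (Dsp) and 0.29 (C1ql2).

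At 22 months 0 of 7 were called (0.495% of all genes), with 1 at an unadjusted p under 0.05 (10.2%), and all 7 differences were below 0. The median over the 7 was -0.11, against -0.01 over all genes tested. Fibcd1 had the largest at -0.27 ± 0.10, with a 95% interval from -0.49 to -0.06 and an adjusted p of 0.328 by limma, and Prox1 was -0.22 ± 0.12 with an adjusted p of 0.565. Without 66-0 only 4 of 7 remained below 0. C1ql2 turned from -0.11 to 0.08, Dsp from -0.10 to 0.02 and Bok from -0.06 to 0.13, while Fibcd1 was -0.13, Prox1 -0.09 and Wfs1 went from -0.10 to -0.20, and 0 were called against 0.919% of all genes. The count over all genes rose from 77 to 143, of which 57 were called both with and without that mouse, 74% of the first and 39.9% of the second.

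With age, no marker passed the test in WT mice. Of 7 genes 0 were called, against 5% of all genes, and 0 had an unadjusted p under 0.05 by limma, against 16.2%. Without 66-0, which enters this fit only through the spread, 0 were called against 6.29%. Fibcd1 (-0.01), Mpped1 (0.01) and Bok (-0.01) were each within 0.01 of 0 with SE from 0.07 to 0.12, and Wfs1 had the largest difference at -0.15 ± 0.10 (adjusted p = 0.501 by limma). In hAβ-KI mice 1 of 7 was called, against 9.18% of all genes, and 3 had an unadjusted p under 0.05, against 19.9%. All 7 differences were below 0, with a median of -0.19 beside -0.00 over all genes. Fibcd1 fell by 0.30 on the log2 scale (SE 0.10, 95% interval -0.52 to -0.09, adjusted p = 0.0902 by limma), from 52.0 ± 5.27 to 42.8 ± 8.95 TPM. Bok (-0.30 ± 0.12, adjusted p = 0.151) and Mpped1 (-0.19 ± 0.08, adjusted p = 0.157) did not pass.

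The call for Fibcd1 was lost without 66-0. Without that mouse its difference was -0.16 ± 0.08 with an adjusted p of 0.226 by limma, 0 of 7 genes were called against 8.78% of all genes, 5 of 7 differences were below 0, and Fibcd1 kept its call in 6 of the 14 fits that left out 1 hAβ-KI mouse. Bok was -0.11 ± 0.07 without 66-0 but was called in 2 fits that left out another old mouse, at -0.37 without 67-2 and -0.38 without 85A-7. Mpped1, for which 66-0 was an ordinary mouse, was -0.20 ± 0.08 without it (adjusted p = 0.150 by limma) and was called in no fit. The difference of the age effect between genotypes passed for 0 of 7 genes (0.00643% of all genes), with 0 of 7 at an unadjusted p under 0.05 by limma (6.86%) and 0 called without 66-0 (0.0193%). The largest were -0.30 ± 0.17 for Bok and -0.29 ± 0.15 for Fibcd1, and no age effect was shown to differ between genotypes. Without 66-0 they were -0.11 ± 0.09 and -0.15 ± 0.10, and Mpped1 had the largest at -0.21 ± 0.11 (adjusted p = 0.626 by limma). Comparisons here share samples, since the old hAβ-KI group enters 3 of them.

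**Figure D2:**
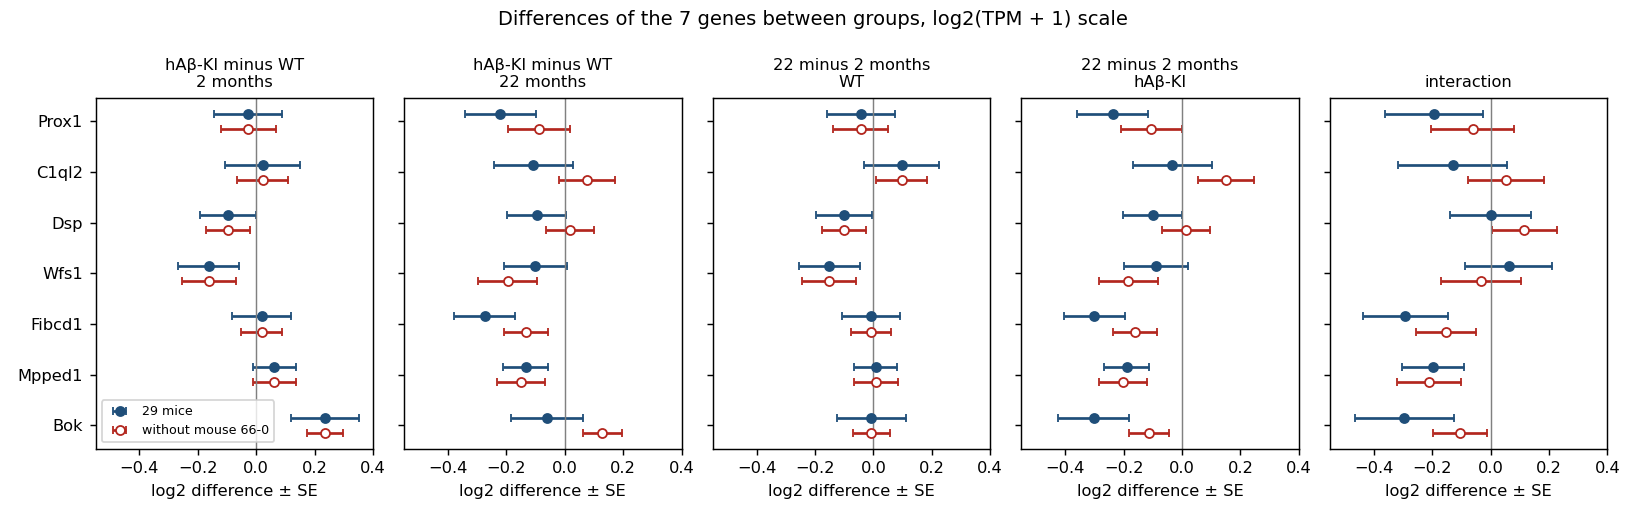
Differences of the 7 genes on the log2(TPM + 1) scale (points) with their SE (bars) for the genotypes at either age, the ages within either genotype and the interaction, from all 29 mice (filled) and without mouse 66-0 (open). In the comparisons that use old hAβ-KI mice the open points of C1ql2, Dsp, Fibcd1 and Bok lie to the right of the filled ones and those of Wfs1 to the left, and the bars are mostly shorter.

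Sex made no difference that passed the test in a model of the 4 groups plus sex. Of 7 genes 0 were called (0.0964% of all genes) and 0 had an unadjusted p under 0.05 by limma (5.98%). Without 66-0 0 were called (0.103%). All 7 values were higher in females by 0.05 to 0.11 on the log2 scale with SE of 0.06 to 0.10, and Bok was -0.02 without the male 66-0.

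Mouse 66-0 had low values for genes of every subfield. Relative to the mean of the other 5 old hAβ-KI mice, Dsp was at a ratio of 0.251, Bok 0.446, C1ql2 0.460, Prox1 0.507 and Fibcd1 0.547, while Mpped1 was at 1.06 and Wfs1 at 1.48. Of 11 further granule cell genes all 11 were lower than that mean, and 8 were below every one of the other 28 mice, against 9.65% of all genes. The 11 include Prox1os, which shares 11.6% of its 43-base stretches with Prox1 and is not independent of it. Lct, the gene of lactase and a marker of granule cells, was 0.66 TPM in 66-0 and 4.10 to 8.52 in the other 28 mice. Tdo2, tryptophan dioxygenase, was 3.14 against 4.49 to 12.4.

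Most genes of the other CA lists were also low. The 3 further CA1 genes were all lower, and Spink8, a CA1 marker that encodes a Kazal-type protease inhibitor, was 38.6 TPM in 66-0 and 84.7 to 135 elsewhere. All 8 CA3 genes were lower and 6 were below the other 28 mice, among them Dkk3, a secreted Wnt modulator, at 105 against 166 to 201, and Iyd, iodotyrosine deiodinase, at 0.35 against 1.94 to 7.43. Of 6 CA2 genes 4 were below all others, including Rgs14, a G protein regulator of CA2, at 43.1 against 58.2 to 89.4 TPM, but Pcp4, a calmodulin-binding protein, was 914 and inside their range of 540 to 921. Sostdc1, also among the 4, varied widely in the other 28 mice, from 2.60 to 52.5 TPM. So did Kl, the 1 of 8 choroid plexus genes below all others in 66-0, at 1.33 against 1.94 to 29.25 TPM. Whether the low Sostdc1 came from CA2 cells was not tested.

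Several other tissue and cell type markers moved in the same library. All 8 oligodendrocyte genes were below the other 28 mice, and their sum was 2480 TPM against 3719 to 5702. Its 8 choroid plexus genes summed to 78.0 TPM, against 2735 to 11424 in the other old hAβ-KI mice. Of 7 interneuron genes 4 were above all others, with Sst, somatostatin, at 1372 against 701 to 988 TPM, and of 8 genes of thalamus and habenula 4 were above, with Tac2, the tachykinin neurokinin B, at 41.2 against 10.0 to 19.9. The thalamic gene Prkcd, a protein kinase C, was below all others at 8.66 against 13.6 to 34.2 TPM, and 3 of the 8 were lower than the mean of the other 5 old hAβ-KI mice. The 6 genes of neurons in general summed to 2788 TPM, inside the range of 2649 to 3096, with Snap25 below all others and Map2 and Slc17a7 above. The 6 microglial and 5 astrocyte genes all lay within the range of the other mice. The part of any of these in the marker values was not tested.

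**Figure D3:**
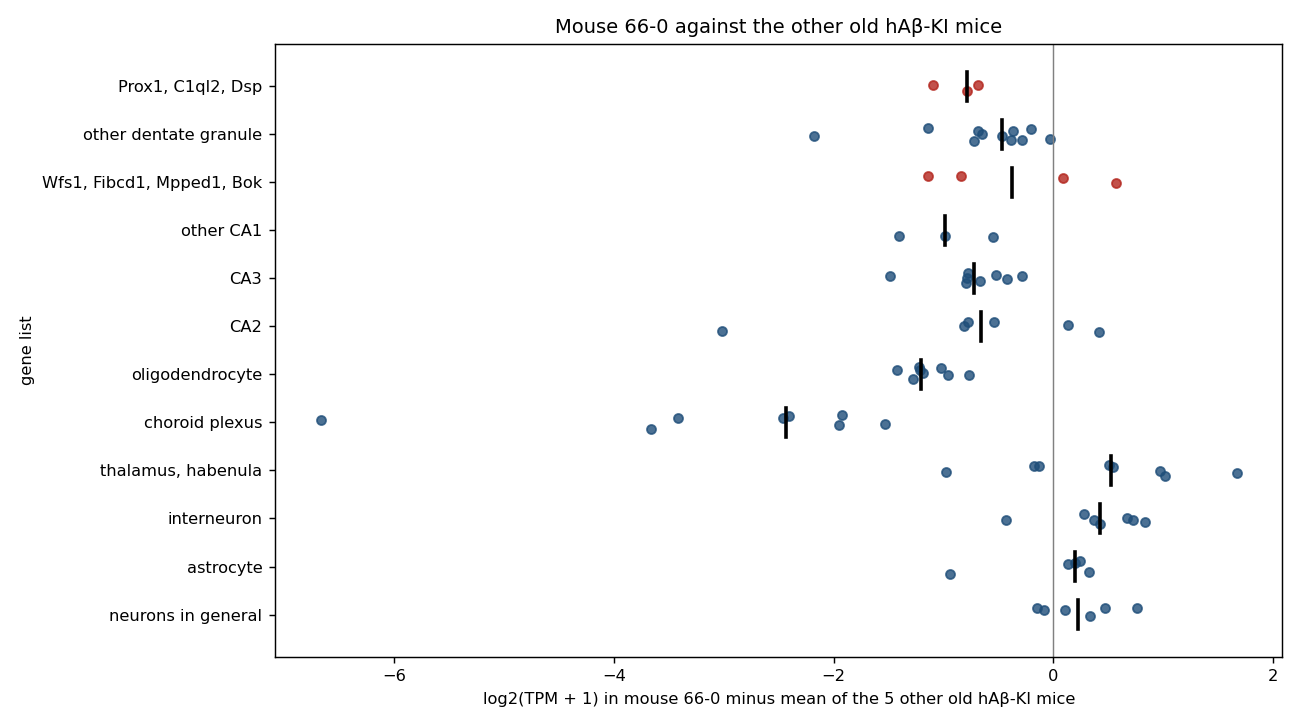
Log2(TPM + 1) in mouse 66-0 minus the mean of the other 5 old hAβ-KI mice, 1 point per gene, by gene list, with the 7 marker genes in red and a black bar at each list's median. Dentate, CA1, CA3 and most CA2 genes, oligodendrocyte and choroid plexus genes lie to the left of 0, interneuron genes mostly to the right, and the 4 CA marker genes on both sides.

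The mean log2 level of the dentate genes minus that of the CA genes gives 1 balance per mouse. It was -2.99 ± 0.21 (SD) for young WT, -3.06 ± 0.15 for young hAβ-KI, -2.97 ± 0.19 for old WT and -2.96 ± 0.25 for old hAβ-KI mice, with differences between means inside the spread of each group. The value of 66-0, -3.40, was the lowest of all, and the other 28 mice spanned -3.25 in 120-0 to -2.64 in 70-2. Without 66-0 the old hAβ-KI mean was -2.88 ± 0.15. The single pair C1ql2 and Wfs1 separated 66-0 further, with a log2 difference of -1.48 against -0.14 to 0.50 in the other 5 of its group. This pair sets a gene lowest in 66-0 against the 1 marker highest in it, so that its gap follows from those values. Bok minus Wfs1, a pair of CA genes only, was -1.12 in 66-0 against 0.17 to 1.04 in the same 5.

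Within groups, some of the dentate genes varied together from mouse to mouse when 66-0 was included. Over 29 mice, with group means removed, Prox1 and Dsp had a Pearson r of 0.74 (permutation p = 0.00033, adjusted over the 21 pairs 0.00693) and a Spearman rho of 0.62 (permutation p = 0.00084, adjusted 0.0176). Prox1 and C1ql2 had r = 0.72 (permutation p = 0.00143, adjusted 0.015) and rho = 0.58 (permutation p = 0.00243, adjusted 0.0255). Without the 2 mice farthest from the Prox1 median, 120-0 and 66-0, r was 0.58 and 0.51. These 2 pairs were the only ones of the 21 past an adjusted p of 0.05 by both measures.

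Across the CA genes the pattern was mixed. By Pearson r, 6 of 21 pairs passed. Fibcd1 and Bok had r = 0.76 (permutation p = 0.00791, adjusted 0.0334), while Wfs1 ran against Fibcd1 at r = -0.61 (permutation p = 0.00366, adjusted 0.0256) and against C1ql2 at r = -0.57 (permutation p = 0.00796, adjusted 0.0334), and with Mpped1 at r = 0.46 (permutation p = 0.0135, adjusted 0.0472). Their rho were 0.50, -0.47, -0.39 and 0.47, with adjusted permutation p of 0.0624, 0.0624, 0.129 and 0.0624. Without the 2 mice farthest from the median of the first gene, 66-0 among them each time, r was 0.42 for Fibcd1 and Bok, -0.50 for Wfs1 and Fibcd1, -0.36 for C1ql2 and Wfs1 and 0.42 for Wfs1 and Mpped1.

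None of these calls, by r or by rho, held without 66-0. Over the 28 other mice 0 of 21 pairs passed the adjustment, with 5 at an unadjusted permutation p under 0.05. The count was 1 without 175-2, 2 without 140-0 and 3 without 41-2-4. Prox1 and Dsp kept r = 0.53 (permutation p = 0.00613, adjusted 0.129), Prox1 and C1ql2 r = 0.49 (permutation p = 0.0146, adjusted 0.132) and Wfs1 and Mpped1 r = 0.47 (permutation p = 0.0189, adjusted 0.132). Fibcd1 and Bok dropped to r = 0.32 and C1ql2 and Dsp from 0.63 to 0.15. Prox1 and Bok went from 0.42 to -0.32. Of the 12 pairs of a dentate and a CA gene 9 were then below 0, all but those with Fibcd1, and all 3 dentate pairs were above 0.

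**Figure D4:**
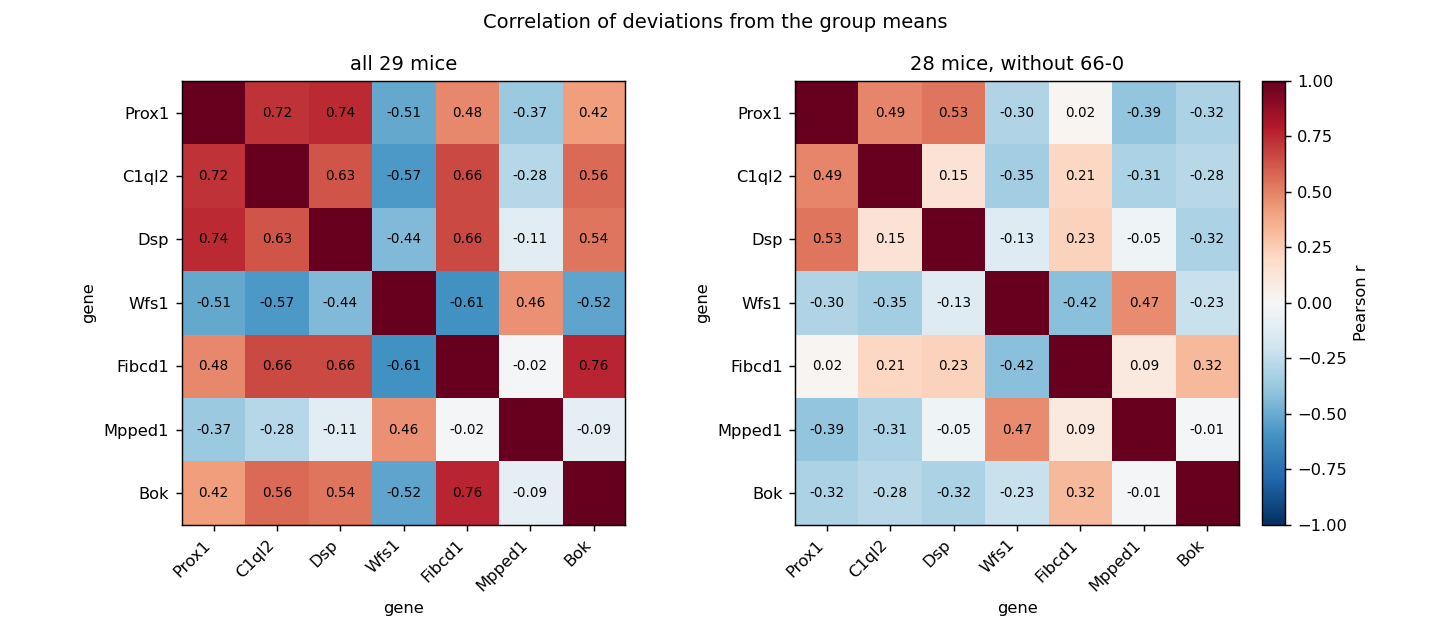
Pearson r between the 7 genes, computed on deviations of log2(TPM + 1) from the group means, over all 29 mice (left) and over 28 mice without 66-0 (right), with red for positive and blue for negative r. Prox1 keeps positive r with C1ql2 and Dsp in both panels, while the positive r of Bok with the dentate genes are negative in the right panel.

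**Figure D5:**
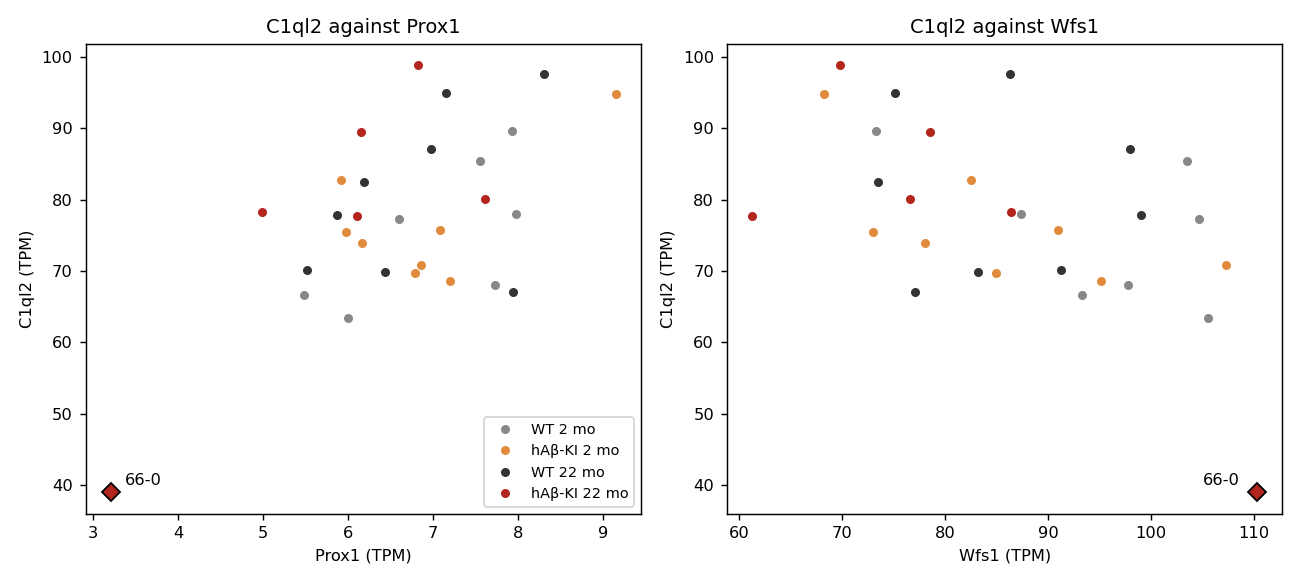
C1ql2 against Prox1 and against Wfs1 in TPM, 1 point per mouse, coloured by genotype and age, with mouse 66-0 as a diamond. Mouse 66-0 sits alone at 39.0 TPM of C1ql2, at the low end of Prox1 and the high end of Wfs1.

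The spread within groups was wide for 4 of the genes given their level. The residual SD on the log2 scale was 0.26 for C1ql2, 0.24 for Bok, 0.23 for Prox1, 0.21 for Wfs1, 0.20 for Fibcd1, 0.17 for Dsp and 0.15 for Mpped1. Against limma's trend of the SD for genes of the same mean level, the ratio was 2.44 for C1ql2, 2.34 for Bok, 1.99 for Wfs1 and 1.73 for Fibcd1, beside a median of 1.06 over all genes tested. It was 1.45 for Mpped1, 1.23 for Prox1 and 0.643 for Dsp. Without 66-0 the ratio of Bok was 1.26 and that of Fibcd1 1.21, while Wfs1 (1.84), C1ql2 (1.71) and Mpped1 (1.54) were still at percentiles 89.8, 86.9 and 81.7 of the ratio among all genes. Over the 28 mice Wfs1 had a coefficient of variation of 14.6% and Fibcd1, also a CA1 marker, 10.2%.

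The genes whose deviations were most like those of each marker were ranked by Pearson r over the 29 mice, with the same libraries in every value and no test. For Wfs1 and Mpped1 the values were close with and without 66-0. Those of Wfs1 were Plxdc1 (r = 0.87, and 0.88 over 28 mice), Unc13c (0.85, 0.81), Necab1 (0.83, 0.77), Cit (0.81, 0.74) and Satb1 (0.80, 0.78). Those of Mpped1 included Rspo2 (0.80, 0.82), Sirpa (0.75, 0.75), Flywch1 (0.71, 0.71) and Fdft1 (0.71, 0.71).

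For Fibcd1 the nearest were Rgs14 (0.89, and 0.81 over 28 mice), Ncdn (0.89, 0.73), Olfml2b (0.89, 0.75), Il16 (0.88, 0.72) and Chn1 (0.87, 0.67). For Prox1 they were Arpc5 (0.81, 0.66), Cnksr2 (0.80, 0.67), Arpc2 (0.80, 0.64), Ermn (0.80, 0.65) and Lrrtm4 (0.79, 0.74), and for Dsp Nrp1 (0.86, 0.71), Olfml2b (0.83, 0.54), Golm1 (0.82, 0.59), Lct (0.81, 0.48) and Cpne4 (0.80, 0.61). C1ql2 had Epha7 (0.84, 0.58), Hpca (0.83, 0.55), Mmd (0.82, 0.59), Spsb1 (0.82, 0.55) and Serpina3n (0.81, 0.51). For Bok the values dropped most without 66-0, with Hapln4 (0.84, 0.37), Mog (0.84, 0.34), Rasd1 (0.83, 0.35), Fa2h (0.83, 0.40) and Sebox (0.83, 0.21). Mog and Fa2h are genes of myelin, and the summed level of the 8 oligodendrocyte genes was also lowest in 66-0.

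Genes of the same fields from wider lists were set beside the 7 markers in the age comparisons. Of 11 further granule cell genes 0 were called with age in WT mice, against 5% of all genes, and 0 had an unadjusted p under 0.05 by limma, against 16.2%. Their median was -0.03 beside -0.03 over all genes. In hAβ-KI mice 2 of the 11 were called, both lower, against 9.18% of all genes (8.78% without 66-0). These were Tdo2 at -0.46 (adjusted p = 0.0617 by limma), not called without 66-0 at -0.35, and Rfx3, a ciliogenic transcription factor, at -0.29 (adjusted p = 0.0409), still called without it at -0.26. Dock10, an exchange factor for small GTPases, was called without 66-0 only, at 0.35, higher in old mice. The dentate gyrus also makes new neurons through adult life, and of 7 genes of progenitors and immature granule neurons 5 fell in WT mice, against 5% of all genes called. In the same comparison 5 of 6 microglial genes and the astrocyte gene Gfap were higher and 2 of 8 oligodendrocyte genes lower, and their part in these values was not tested. Igfbpl1, expressed in newborn neurons, fell by 1.26 on the log2 scale (adjusted p = 0.000306 by limma), Top2a, the topoisomerase of dividing cells, by 0.45, Calb2 by 0.42 and Sox11 by 0.40. Neurod1, a factor of granule neuron differentiation, fell by 0.28, while Dcx (-0.17) and Sox4 (-0.35) were not called. Calb2 had a mean of 54.3 TPM over the 29 mice and Dcx 1.14. The part of other cell types in the Calb2 value was not tested. Top2a, at a mean of 0.537 TPM in young and 0.116 in old WT mice, and Igfbpl1, at 2.76 and 0.568, lie near the floor. There the log2(TPM + 1) scale understates changes. In hAβ-KI mice only Top2a of the 7 passed, falling by 0.50, against 9.18% of all genes. Sox11 passed as well without 66-0 at -0.27, against 8.78%. The difference of the age effect between genotypes passed for 0 of these 7 genes by limma, against 0.00643% of all genes. An unadjusted p under 0.05 was reached by 2 of them, against 6.86%.

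In CA3, 1 of 8 genes was called with age in WT mice, against 5% of all genes. This was Iyd, which fell by 0.74 on the log2 scale (adjusted p = 0.0470 by limma). In hAβ-KI mice 3 of 8 CA3 genes fell, against 9.18% of all genes called, Iyd by 0.69, Prss35, a serine protease-like protein, by 0.42 and Cpne4, a copine, by 0.38. Without 66-0 only Prss35 was called, at -0.35, against 8.78% of all genes, with Iyd at -0.44 and Cpne4 at -0.25. In CA2, 2 of 6 genes were called in each genotype, against 5% of all genes in WT and 9.18% in hAβ-KI mice. In WT mice Cacng5, an AMPA receptor auxiliary subunit, fell by 0.52 and Pcp4 by 0.34. In hAβ-KI mice Rgs14 fell by 0.38 and Ntf3, neurotrophin-3, by 0.33. Of these Rgs14 alone was called without 66-0 at -0.28, with Ntf3 at -0.20. None of the 3 further CA1 genes was called with age in either genotype by limma, against 5% of all genes in WT and 9.18% in hAβ-KI mice. An unadjusted p under 0.05 was reached by 0 of them, against 16.2% and 19.9% of all genes.

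Partners of the markers' products were called at a share near that of all genes with age in hAβ-KI mice, 9.18%. Among desmosome genes, Pkp4, a plakophilin, rose by 0.29 on the log2 scale with age in hAβ-KI mice (adjusted p = 0.0167 by limma), 1 of 4 tested, and was also called without 66-0 at 0.28. Among 8 BCL2-family relatives of Bok, Bcl2 rose by 0.32 (adjusted p = 0.0547), not called without 66-0 at 0.27. Of 4 mossy fibre partners of C1ql2 and 6 genes of endoplasmic reticulum stress and Wolfram syndrome, 0 were called in either genotype with age by limma. Of all genes 9.18% were called in hAβ-KI and 5% in WT mice. An unadjusted p under 0.05 was reached by 2 and 1 of them in hAβ-KI mice (19.9% of all genes) and by 0 in WT mice (16.2%). No gene of the lists for subfields and partners was called between genotypes at either age by limma, against 0.0386% of all genes at 2 and 0.495% at 22 months. At 2 months 0 or 1 of each list had an unadjusted p under 0.05, against 6.69% of all genes. At 22 months 4 of 8 CA3 genes, 3 of 6 CA2 genes and 3 of 4 mossy fibre partners did, against 10.2% of all genes, and 0 to 2 of each other list. All 8 CA3 genes were then below 0, with a median of -0.27 that was -0.12 without 66-0. Of the CA2 genes 2 of 6 were below 0, and Grik4 is on both the CA3 and the mossy fibre list. Without 66-0, the CA3, CA2 and mossy fibre genes at an unadjusted p under 0.05 by limma were Prss35, Amigo2 (0.40), Rgs14 (-0.17) and Nrxn3. Those of the other subfield and partner lists were Tdo2, Dock10, Mcl1, Atf6 and Eif2ak3. The share of all genes at that p was taken with all mice only. Of the lists for other cell types, the neuronal gene Rbfox3 was called at 22 months, at -0.20 in hAβ-KI minus WT mice, 1 of 6 against 0.495% of all genes. Without 66-0, Mobp, Cldn11 and Ermn, 3 of 8 oligodendrocyte genes, were called higher, against 0.919% of all genes. The part of these in the subfield values was not tested.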

How the data were processed

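Hippocampal RNA of 29 mice was sequenced after Smart-seq2 amplification and Nextera library preparation, with paired reads of 43 bases and no strand information. Per the labels and the study's methods, the authors aligned reads with STAR 2.5.1b to GRCm38, ran RSEM 1.2.22 with Gencode vM8 gene models and deposited the resulting TPM, limited to protein-coding and long non-coding genes. TPM hold no counts, so that the depth of each library is unknown and precision is given as the spread between mice. TPM sum to a fixed total before that cut, so that a rise in some transcripts lowers the others.

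From these, log2(TPM + 1) was tested with limma 3.58.1 in R 4.3.3 (trended eBayes, 1 model of the 4 groups, two-sided) in the 15554 genes that reached 1 TPM in 2 or more mice, in place of the authors' edgeR, which needs counts. Calls took a Benjamini-Hochberg adjusted p under 0.1 and p under 0.05. Correlations used deviations from group means and 100000 permutations of mice within groups, two-sided. Python 3.11.15 with numpy 2.4.6 and pandas 2.3.3 did the other steps. The scripts were checked on simulated data. Group and sex came from the labels, no mouse was left out of the fits named as all mice, and no libraries were identical. The mice carried 17 name numbers, 10 of them shared by 2 or more mice, whose meaning the labels do not give (correlation of mice with the same number 0.047). Beside the 7 markers, the text names for each list up to 4 genes past the threshold by size of change (where none passed, up to 2 by mean TPM), listed genes of the subfields, and the 5 genes most like each marker, of which 1 is not reported here. Other genes named for their values in mouse 66-0, and Dock10, were chosen after those values were seen. The markers and lists were chosen with earlier results of these data known. The fits without mouse 66-0 beyond leaving out each mouse in turn were added after seeing the data. Positions are from GENCODE M21, later than the authors' annotation, and promoters from RefSeq, where all 7 genes matched.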

Additional observations from a re-analysis of the deposited data

Results flagged for a closer look

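Of 32 groups of values examined (the 7 genes and the dentate minus CA balance in 4 groups), 5 had a mouse whose gap to its nearest neighbour was large for the range of the group, where chance gives about 1 in 20 for a single group. The 32 are not independent, since the same mice give all 7 genes and the balance is made from these genes. Mouse 66-0 gave 3 of them, the low C1ql2 of 39.0 TPM, the low Dsp of 0.26 TPM and the low Fibcd1 of 25.4 TPM among old hAβ-KI mice. Prox1 and Bok were also lowest in it, with gaps inside the limit for 6 mice.

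The young hAβ-KI mouse 175-2 gave the other 2. Its Prox1 was 9.15 TPM, with the next highest of its group at 7.20, and its dentate minus CA balance was -2.71, with the next highest at -3.04. In the same mouse C1ql2 was 94.8 TPM and Dsp 1.17 TPM, the highest of the group, and Wfs1 68.2 and Mpped1 97.9 TPM, the lowest of the group. The CA gene Fibcd1, at 60.3 TPM, was also the highest of the group, and Bok, at 118 TPM, lay within it.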

How the results depend on the processing

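Of the group means of the 7 genes, none moved by over 1 SD under quantile normalization or rescaling. The count of markers called with age in hAβ-KI mice was 1 as reported and 0 with no filter on low values, with quantile normalization, with only the groups compared, without a variance trend and with mice of the same name number treated as correlated. It ranged from 0 to 2 when 1 mouse was left out, and the adjusted p of Fibcd1 from 0.0801 to 0.197 over the other settings. In all other comparisons the count stayed 0. Of 357 differences of single genes under the planned settings, 11 changed sign, none of them called. With a pseudocount of 0.1 the dentate minus CA balance was -3.30 for both WT groups, -3.40 for young and -3.36 for old hAβ-KI mice. The number of correlated pairs was 6, against 3 when TPM were rescaled to nuclear protein-coding genes, and 0 to 11 with 1 mouse left out, 0 without 66-0, 1 without 175-2, 2 without 140-0, 3 without 41-2-4 and 11 without 71-0. Over all genes, genotype calls at 22 months went from 77 to 40 with only the groups compared, 48 without a trend and 49 with correlated mice, and the 1 interaction call to 0 under 7 settings. Depth is unknown, so that the counting error of Dsp, at about 1 TPM, cannot be given. No paired analysis was made, because each mouse belongs to 1 group and the groups share no name numbers.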

Other observations

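Trh, the thyrotropin-releasing hormone precursor, was 31.9 TPM in mouse 66-0 and 0.10 to 1.16 TPM in the other 28 mice, and its receptor gene Trhr was 8.63 against 1.52 to 3.56. C1ql3, a relative of C1ql2, was 10.9 TPM there against 4.15 to 6.42, so that these 2 members of a family differed in opposite directions in the same library. Calb2, calretinin, was 85.5 against 34.0 to 75.4 TPM, and Sostdc1 1.87 against 2.60 to 52.5. Trh, Trhr, Calb2, C1ql3 and Sostdc1 were picked after their values were seen, and no test was made.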
